A study of Nannochloropsis gaditana with 4 samples.

Results

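AGPase1 and AGPase2 are the 2 genes annotated as glucose-1-phosphate adenylyltransferase, also called ADP-glucose pyrophosphorylase, among the 44 genes measured by real-time quantitative PCR in Nannochloropsis gaditana, a unicellular marine alga. They were picked out of the table by their symbols, with earlier results of these data known, and both had a value in all 4 samples. The 3 flashing-light samples came from batch cultures grown for 13 days under light pulsed at 5, 50 or 500 Hz. The light was on for a share of 0.05 of each period (the duty cycle), at 6000 µmol s-1 m-2 during a flash. The control culture grew for the same time under continuous light. Averaged over time, every culture received 300 µmol s-1 m-2, so the comparison asks how light given in flashes, at an equal mean, relates to transcript levels. The design text of the series says that RNA was pooled, and each condition is 1 sample.

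ADP-glucose pyrophosphorylase joins glucose-1-phosphate and ATP into ADP-glucose and pyrophosphate. In land plants and green algae ADP-glucose is the sugar donor for starch, and in bacteria it is the donor for glycogen. The plant enzyme is built from large and small subunits, is switched on by an intermediate of carbon fixation and is held back by phosphate. Heterokont algae, the lineage of Nannochloropsis, store the beta-glucan chrysolaminarin rather than starch, so what ADP-glucose serves in this alga is less clear than in plants. The tables do not say which subunit either gene encodes.

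The files name the columns by sample number only. SAMPLE 1 is the continuous-light control, because in the authors' deposited fold table, headed test over control, 393 of 396 values equal a ratio to it within 0.1%. SAMPLE 2, SAMPLE 3 and SAMPLE 4 then hold the flashing-light cultures. Which of them had which frequency cannot be read from the headers, and no statement on frequency is made. Values are normalized relative quantities, linear ratios without a unit that are scaled separately for each gene, so the levels of AGPase1 and AGPase2 cannot be set against each other. Each value was measured in 3 repeats, and the labels do not say whether these are cultures, reverse transcriptions or wells. Errors of levels are SDs over the repeats. The error of a change, called the propagated SD, is the root of the summed squared log2 SDs of both samples. Conditions were not tested against each other, since each has 1 sample. The size of a change is read against 2-fold and against 2 propagated SDs, and beside the 36 genes that were not reference genes, called targets. The number of amplification cycles behind each value is unknown.

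With the authors' normalization AGPase1 was lower in SAMPLE 2 than in continuous light, and the means of AGPase2 were nearly level over all 4 samples. The control repeats of AGPase2 lay wide apart, and other reference genes moved both genes, as given below. AGPase1 measured 0.365, 0.425 and 0.352 in the repeats of SAMPLE 2, 0.574, 0.545 and 0.473 in SAMPLE 3 and 0.690, 0.673 and 0.638 in SAMPLE 4, against 0.611, 0.562 and 0.599 in continuous light. SAMPLE 2 lay below every other repeat, SAMPLE 4 lay above every other repeat, and SAMPLE 3 overlapped with continuous light. The means were 0.380 ± 0.0390 in SAMPLE 2, 0.530 ± 0.0520 in SAMPLE 3 and 0.667 ± 0.0266 in SAMPLE 4, against 0.590 ± 0.0258 in continuous light (SD, n = 3 repeats each). From low to high the order was thus SAMPLE 2, SAMPLE 3, continuous light and SAMPLE 4, of which the neighbours SAMPLE 3 and continuous light did not differ beyond their spread.

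AGPase2 measured 0.812, 0.747 and 0.721 in SAMPLE 2, 0.738, 0.695 and 0.754 in SAMPLE 3 and 0.737, 0.673 and 0.728 in SAMPLE 4, against 0.736, 0.581 and 0.903 in continuous light. All 9 flashing-light values lay within the range of the control repeats. The means were 0.760 ± 0.0471 in SAMPLE 2, 0.729 ± 0.0306 in SAMPLE 3 and 0.713 ± 0.0343 in SAMPLE 4, against 0.740 ± 0.161 in continuous light (SD, n = 3 repeats each). No neighbours in the order of these means differed beyond their spread. With the authors' normalization the sample means of AGPase2 spanned 0.09 log2, and only 3 of the 36 targets spanned less. Those of AGPase1 spanned 0.81 log2, with 8 targets spanning more, and the median target spanned 0.63 log2.

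**Figure D1:**
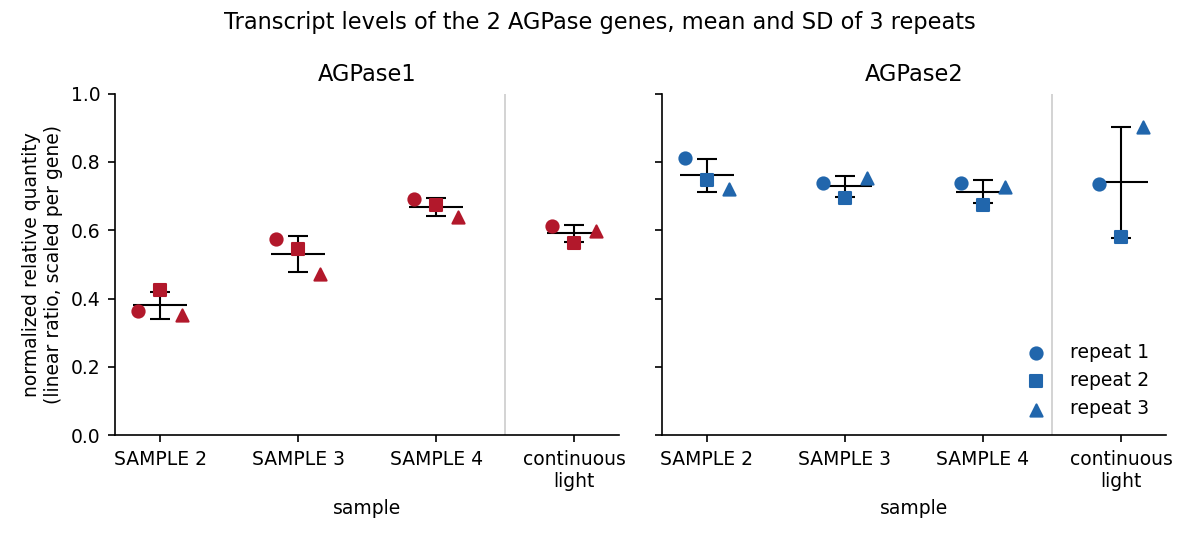
Normalized relative quantity (linear ratio, scaled per gene) of AGPase1 and AGPase2 in the 3 flashing-light samples and in continuous light. Points are the 3 repeats, and the bar and whiskers are their mean and SD. AGPase1 sat between 0.352 and 0.425 in SAMPLE 2, below its other samples, while AGPase2 in the flashing-light samples stayed between 0.673 and 0.812.

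The repeats of continuous light differed in precision between the genes. The SD of log2 values there was 0.06 for AGPase1, the smallest of the 36 targets, and 0.32 for AGPase2, with 8 targets more variable. The wide error of AGPase2 came from repeats 2 and 3 on either side of repeat 1, and every comparison of AGPase2 with the control carries it. In repeats 1 and 2 AGPase2 was higher in each flashing-light sample than in the same-numbered control repeat, by as little as 0.0007 log2, and in repeat 3 it was lower in each, so no flashing-light sample had 1 direction in all 3 repeats. With repeat 3 of continuous light left out, AGPase2 had a log2 change of 0.22 ± 0.26 in SAMPLE 2, 0.16 ± 0.25 in SAMPLE 3 and 0.12 ± 0.25 in SAMPLE 4 against continuous light. With repeat 2 of all samples left out the direction was the opposite, at −0.09 ± 0.24, −0.13 ± 0.21 and −0.16 ± 0.21 in the same order.

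Against continuous light AGPase1 stood at 0.643-fold in SAMPLE 2, a log2 change of −0.64 ± 0.16 that was negative in 3 of 3 repeats. It was beyond 2 propagated SDs, as were 14 of the 36 targets (38.9%), 10 of them higher and 4 lower, and the repeats of 21 targets (58.3%) did not overlap with the control. Only 2 targets had a lower value than AGPase1. They were NR, the nitrate reductase gene of nitrogen assimilation, at −2.03 ± 0.58, and the diacylglycerol acyltransferase gene DGAT3 at −0.72 ± 0.08. The enzyme of DGAT3 adds an acyl chain to diacylglycerol, which gives triacylglycerol. The median target was at 0.20 in this sample, and AGPase1 lay 0.84 log2 below it, at 0.560 of its fold. AGPase2 stood at 1.04-fold, a log2 change of 0.06 ± 0.33, so values from −0.60 to 0.72 lie within 2 propagated SDs. Neither gene reached 2-fold, which 5 of the 36 targets (13.9%) did.

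In SAMPLE 3 AGPase1 stood at 0.896-fold against continuous light, a log2 change of −0.16 ± 0.16, and AGPase2 at 1.00-fold, a change of 0.0009 ± 0.32. Neither was beyond 2 propagated SDs, where 2 of the 36 targets (5.56%) were, and neither reached 2-fold, where 1 target (2.78%) did. The repeats of both genes overlapped with the control, from which 3 targets (8.33%) were separate. The direction of AGPase1 here turned in 5 of 20 alternative calculations, at 0.076 with TEF1, 0.29 with AT1, 1.15 with BT, 0.087 with GAPDH and 0.13 with all 8 reference genes, none beyond 2 propagated SDs. The range within 2 propagated SDs with the deposited factor ran from −0.47 to 0.16 for AGPase1 and from −0.65 to 0.65 for AGPase2.

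In SAMPLE 4 AGPase1 stood at 1.13-fold against continuous light, a log2 change of 0.18 ± 0.09 that was positive in 3 of 3 repeats. This small difference was just beyond 2 propagated SDs, as were 2 of the 36 targets (5.56%), and AGPase1 was the only one of them that was higher. The repeats of 7 targets (19.4%) did not overlap with the control. The SDs behind the call were among the smallest in the study, since 4 targets were less variable than AGPase1 in SAMPLE 4 and none in continuous light, and 3 targets had a larger positive change. Leaving out 1 value ended the call in 2 cases, with 0.17 ± 0.10 without repeat 2 of SAMPLE 4 and 0.19 ± 0.10 without repeat 3 of continuous light, and with repeat 2 of all samples left out the change was 0.13 ± 0.08. It was beyond 2 propagated SDs in 6 of 20 alternative calculations, and BT as the only reference turned its direction, at −0.10 ± 0.90. AGPase2 stood at 0.978-fold, a log2 change of −0.03 ± 0.33. Of the 36 targets 0 (0%) reached 2-fold.

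**Figure D2:**
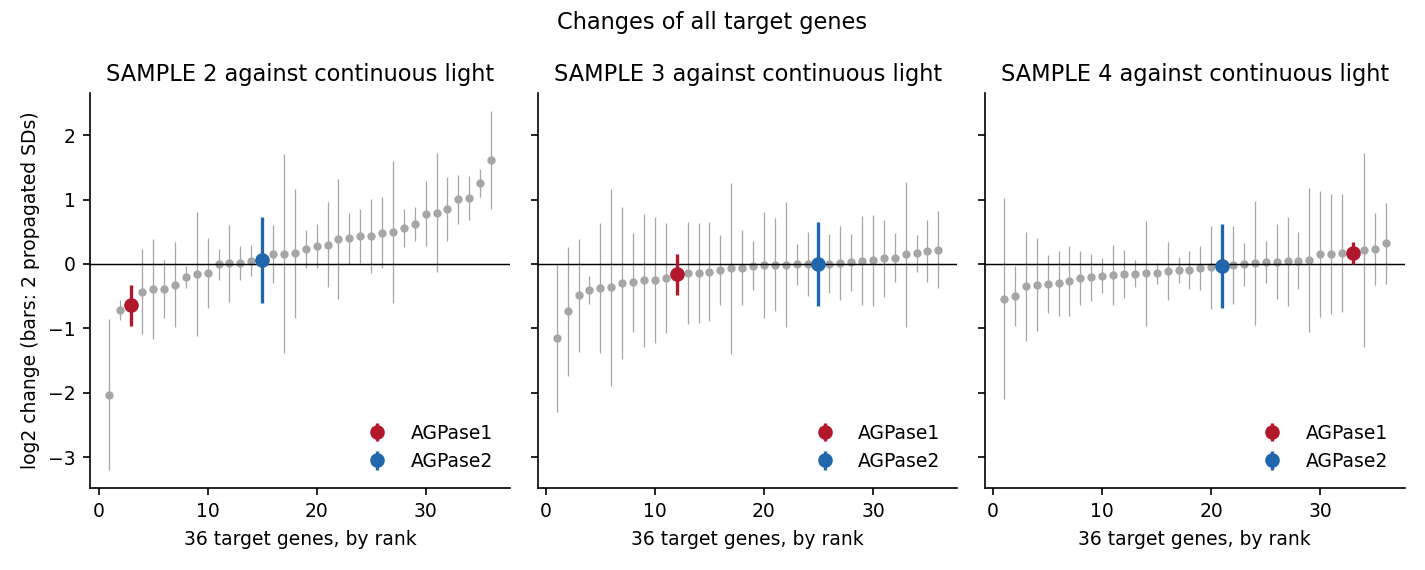
Log2 change of each of the 36 targets against continuous light in SAMPLE 2, SAMPLE 3 and SAMPLE 4, ranked from lowest to highest, with bars of 2 propagated SDs. AGPase1 has 2 targets below it in SAMPLE 2, at −0.64, and near the top in SAMPLE 4, at 0.18, while AGPase2 lies close to 0 in each.

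In SAMPLE 4 the repeats agreed only after normalization. Before it, AGPase1 was at 0.810, 1 and 0.483 and AGPase2 at 0.865, 1 and 0.551, relative to the highest value of each gene. Both genes thus had their highest value in repeat 2, as did 25 of the 44 genes, and the factor that the authors divided by was 1.49 there, against 1.17 in repeat 1 and 0.757 in repeat 3. The division brought the SD of log2 values in this sample to 0.06 for AGPase1, against 0.54 before it, and to 0.07 for AGPase2, against 0.45.

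The flashing-light samples were also set against each other, comparisons that share samples with those above. AGPase1 was higher in SAMPLE 4 than in SAMPLE 2 by 0.81 ± 0.16 log2, or 1.76-fold, beyond 2 propagated SDs as were 20 of the 36 targets (55.6%). Of those 20 targets 16 were lower in SAMPLE 4 and 4 higher, and 1 target had a larger positive change than AGPase1. The call for AGPase1 held in 16 of 20 alternative calculations. It was lost with no reference gene, at 1.15 ± 0.58, with TEF1 at 0.51 ± 0.35, with AT1 at 0.69 ± 0.44 and with BT. SAMPLE 3 was higher than SAMPLE 2 by 0.48 ± 0.20 log2 in AGPase1, or 1.39-fold, in a comparison where 15 of the 36 targets (41.7%) were beyond 2 propagated SDs, 3 of them higher. Without repeat 1 the difference was 0.39 ± 0.24, and the call held in 12 of 20 alternative calculations. It was lost with all 8 reference genes, at 0.51 ± 0.45, and with TEF1, UFP, ACT, AT1, BT or GAPDH as the only reference, between 0.18 and 1.04. SAMPLE 4 was higher than SAMPLE 3 by 0.34 ± 0.16 log2, where 5 targets (13.9%) were beyond 2 propagated SDs, 4 of them higher. That difference was 0.33 ± 0.17 without repeat 2 of SAMPLE 4 and 0.35 ± 0.21 with repeat 2 of all samples left out, both within 2 propagated SDs. The call held in 7 of 20 alternative calculations. All 8 reference genes put the difference at 0.062 ± 0.46, and GAPDH alone put it at 0.076 ± 0.06, AT1 at 0.077 ± 0.64 and TEF1 at 0.090 ± 0.42. With BT as the only reference, SAMPLE 4 was lower in AGPase1 by the log2 difference of −1.07 against SAMPLE 2 and −1.25 against SAMPLE 3. The calculations that held include leaving out repeat 3 of continuous light, though no value of continuous light enters these comparisons. Leaving out repeat 2 of SAMPLE 4 likewise could not change SAMPLE 3 against SAMPLE 2.

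With the deposited factor AGPase2 was near 0 in the same comparisons, and there its error was small. It was at −0.09 ± 0.11 log2 in SAMPLE 4 against SAMPLE 2, −0.06 ± 0.11 in SAMPLE 3 against SAMPLE 2 and −0.03 ± 0.09 in SAMPLE 4 against SAMPLE 3. Values between −0.32 and 0.13 lie within 2 propagated SDs for the first of these, so with the deposited factor a 2-fold difference of AGPase2 between these samples lies outside 2 propagated SDs. For SAMPLE 4 against SAMPLE 2, BT as the only reference gave −1.97 ± 0.77, UFP 0.71 ± 0.19 and GAPDH −0.54 ± 0.16. These were the 3 of 20 alternative calculations beyond 2 propagated SDs. In SAMPLE 3 against SAMPLE 2 there was 1 such, 0.36 ± 0.13 with centring on the median target, and in SAMPLE 4 against SAMPLE 3 there were 0.

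Any error of the reference genes is the same for both genes in a repeat and cancels in the ratio of AGPase2 to AGPase1, which was formed within each repeat number. Its level has no meaning because each gene is scaled to its own maximum, but its change between samples has. The log2 ratio was 1.16, 0.81 and 1.04 in the repeats of SAMPLE 2, 0.36, 0.35 and 0.67 in SAMPLE 3 and 0.094, 0 and 0.19 in SAMPLE 4, against 0.27, 0.048 and 0.59 in continuous light. SAMPLE 2 lay above every other repeat, SAMPLE 4 lay below SAMPLE 3 without overlap, and continuous light overlapped with both. How many ratios of other pairs of targets were separate in this way was not counted. Of single targets, 21 of 36 (58.3%) had repeats in SAMPLE 2 that did not overlap with continuous light.

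**Figure D3:**
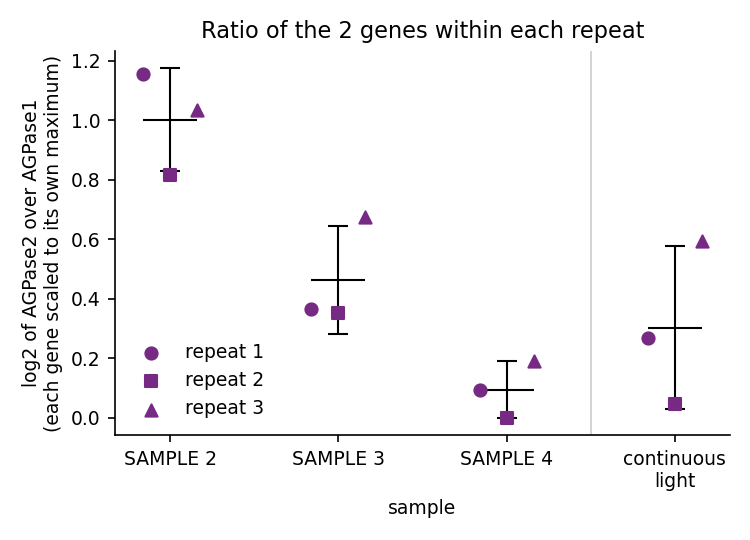
Log2 of the ratio of AGPase2 to AGPase1 within each repeat, for the 3 flashing-light samples and continuous light. Points are repeats, and the bar and whiskers are their mean and SD. SAMPLE 2, at 1.00 ± 0.17, stands above continuous light at 0.30 ± 0.27.

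The ratio was 1.62-fold higher in SAMPLE 2 than in continuous light, a log2 shift of 0.70 ± 0.32 that was positive in 3 of 3 repeats. At 2.16 propagated SDs from 0 it was just past the limit of 2, and so were 273 of the 630 pairs that can be formed from the 36 targets (43.3%), so a shift of this kind was common in SAMPLE 2. A larger shift was found in 247 of those pairs. Without repeat 1 the shift was 0.60 ± 0.42, within 2 propagated SDs, and it was 0.70 ± 0.37 when the SDs of the genes were combined as independent. In SAMPLE 3 the shift was 0.16 ± 0.33, where 33 pairs (5.24%) were beyond 2 propagated SDs, and in SAMPLE 4 it was −0.21 ± 0.29, where 14 pairs (2.22%) were. These counts of pairs were unstable. Leaving out a repeat number gave 48 to 119 pairs in SAMPLE 3, and in SAMPLE 4 it gave 43 to 92. Without repeat 3 of continuous light alone there were 61 pairs in SAMPLE 3 and 100 in SAMPLE 4, and without repeat 2 of SAMPLE 4 alone 24 in SAMPLE 4.

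Between flashing-light samples the ratio was lower in SAMPLE 4 than in SAMPLE 2 by a log2 difference of −0.91 ± 0.20, beyond 2 propagated SDs as were 395 of the 630 pairs (62.7%). In SAMPLE 3 against SAMPLE 2 it was at −0.54 ± 0.25, where 245 pairs (38.9%) were beyond 2 propagated SDs, and without repeat 1 at −0.41 ± 0.28. In SAMPLE 4 against SAMPLE 3 it was at −0.37 ± 0.21, within 2 propagated SDs, where 145 pairs (23.0%) were beyond. The same value was beyond 2 SDs with its SD taken within repeat numbers as a replicate block, at ± 0.11, and with the SDs of the genes combined as independent, at ± 0.18. Without repeat 3 it was beyond them too, at −0.31 ± 0.07. The difference between SAMPLE 4 and SAMPLE 2 ran from −0.95 to −0.83 with a repeat number left out of all samples, beyond 2 propagated SDs each time.

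The targets hold 9 sets of genes whose symbols differ only in the final number, which form 20 pairs, the AGPase pair among them and 10 of them within the DGAT genes. In SAMPLE 2 against continuous light 12 of these 20 pairs were beyond 2 propagated SDs, beside 273 of all 630 pairs (43.3%), and 7 had a larger shift than the AGPase pair. Among the sets of exactly 2 genes, the ratio of VDE2 to VDE1, violaxanthin de-epoxidases of the xanthophyll cycle, shifted by 0.96 ± 0.34. That of PAP3 to PAP2, phosphatidic acid phosphatases, shifted by −0.98 ± 0.23. PAP counts as a set of 2 only among the targets, since PAP1 was part of the factor that the authors divided by. The ratio of ENR2 to ENR1, enoyl-ACP reductases of fatty acid synthesis, was at 0.10 ± 0.22 and that of LPAT2 to LPAT1, which add an acyl chain to lysophosphatidic acid, at −0.25 ± 0.29. The ratio of LCS2 to LCS1 was at 0.28 ± 0.63 and that of KAR2 to KAR1 at −0.48 ± 0.85, so among the sets of 2 genes the AGPase, VDE and PAP pairs were beyond 2 propagated SDs. Of the 20 pairs from all 9 sets, 2 were beyond 2 propagated SDs in SAMPLE 3, beside 33 of all 630 pairs (5.24%). In SAMPLE 4 there were 0 of the 20, beside 14 of all 630 pairs (2.22%).

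How far AGPase1 changed against continuous light depended on the reference gene. In SAMPLE 2 its log2 change was between −1.24 with UFP, a ubiquitin family gene, as the only reference and −0.20 with GAPDH, and with beta tubulin BT it was 0.97 ± 0.80, the opposite direction. It was beyond 2 propagated SDs in 15 of 20 alternative calculations, among them leaving out repeat 2 of SAMPLE 4, which does not enter this comparison. The exceptions were the elongation factor gene TEF1 at −0.34 ± 0.47, alpha tubulin AT1 at −0.32 ± 0.51, GAPDH at −0.20 ± 0.24, BT and all 8 reference genes together at −0.38 ± 0.28. The same choices moved the median target in SAMPLE 2 between −0.40 with UFP and 1.80 with BT. With each repeat centred on its median target AGPase1 was at −0.96. A change of reference moves all targets alike, so the distance of AGPase1 from the median target is the same under each of them. AGPase2 in SAMPLE 2 was between −0.54 with UFP and 1.67 ± 0.71 with BT, and GAPDH gave 0.50 ± 0.17. BT and GAPDH were the 2 of 20 alternative calculations in which it was beyond 2 propagated SDs.

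**Figure D4:**
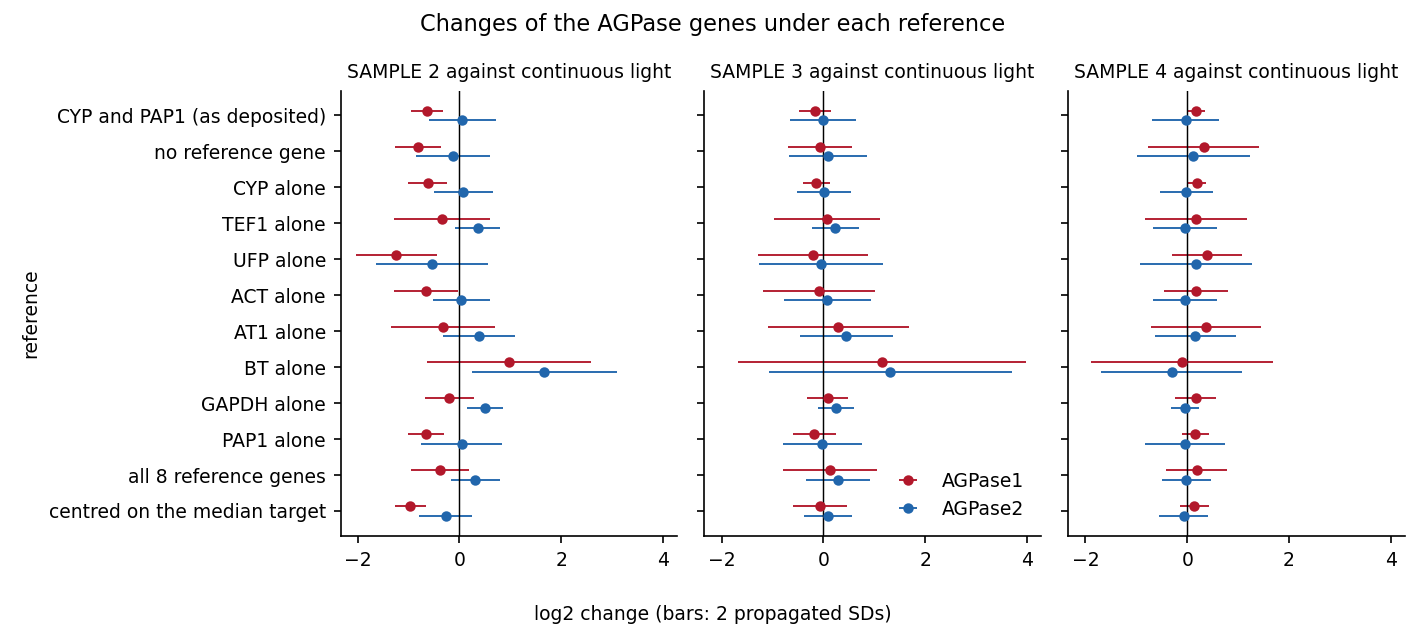
Log2 change of AGPase1 and AGPase2 against continuous light in SAMPLE 2, SAMPLE 3 and SAMPLE 4 with the deposited factor, with no reference, with each single reference gene, with all 8 and after centring on the median target. Bars are 2 propagated SDs. Both genes share the reference of a line, so their distance, 0.70 log2 in SAMPLE 2, is fixed, and only their common position moves, from −1.24 to 0.97 for AGPase1.

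Likeness of pattern was measured as the root mean square difference between log2 profiles over the 4 samples, each centred on its own mean, which does not depend on the reference. It is a description over 4 samples that share 1 factor per repeat. The 3 targets most like AGPase1 were the biotin ligase gene BC, whose product attaches biotin to acetyl-CoA carboxylase, at 0.108, and the diacylglycerol acyltransferase genes DGAT3 at 0.129 and DGAT1 at 0.141, against a median of 0.459 over the 35 other targets. BC stood at −0.43 ± 0.33 in SAMPLE 2, −0.22 ± 0.43 in SAMPLE 3 and 0.32 ± 0.31 in SAMPLE 4 against continuous light. DGAT3 stood at −0.72 ± 0.08, −0.40 ± 0.11 and −0.15 ± 0.10 in the same samples, and DGAT1 at −0.38 ± 0.22, −0.09 ± 0.27 and 0.04 ± 0.29. AGPase2 was 12th in this order, at 0.336.

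The targets most like AGPase2 were also nearly level, as the measure requires for a gene that is itself nearly level. They were the nitrite transporter gene NAR1 at 0.0225, the 3-oxoacyl-ACP reductase gene KAR2 of fatty acid synthesis at 0.0231 and DGAT4 at 0.0314, against a median of 0.222. NAR1 ran from −0.09 ± 0.15 in SAMPLE 4 to 0.05 ± 0.12 in SAMPLE 2 against continuous light, KAR2 from −0.02 ± 0.30 to 0.01 ± 0.30, and DGAT4 from −0.09 ± 0.10 in SAMPLE 4 to −0.0002 ± 0.25 in SAMPLE 3.

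Sugar phosphates are also a source of carbon for lipid synthesis, and lists of lipid genes were read beside the AGPase genes. The 3 glycerol-3-phosphate dehydrogenase genes, whose enzymes supply the glycerol backbone of lipids, had a median of 0.02 in SAMPLE 2 against continuous light, with 1 higher and 0 lower beyond 2 propagated SDs, beside 14 of all 36 targets (38.9%). That one was GPD1 at 0.85 ± 0.25, while AGPase1 was at −0.64 ± 0.16. Of the 5 diacylglycerol acyltransferase genes 1 was higher, DGAT2 at 0.56 ± 0.14, and 1 lower, DGAT3. Of 6 fatty acid synthesis genes 1 was higher, the dehydratase gene HAD at 1.02 ± 0.17, with a median of 0.44 against 0.20 over all targets. This list holds BC, MCT, KAS, HAD, ENR1 and ENR2 and leaves out KAR1 and KAR2. The glycerolipid genes GPAT, LPAT1, LPAT2, PAP2 and PAP3 were in none of the lists and were named after their values were seen. In SAMPLE 2 GPAT was at 0.43 ± 0.21, LPAT1 at 0.40 ± 0.20, PAP2 at 0.78 ± 0.25 and PAP3 at −0.20 ± 0.09. These were beyond 2 propagated SDs, beside 14 of all 36 targets (38.9%), and LPAT2 at 0.15 ± 0.22 was not. In SAMPLE 4 none of the 14 genes of these 3 lists was beyond 2 propagated SDs, beside 2 of all 36 targets (5.56%). The medians of the lists there were −0.05, −0.09 and 0.16. In SAMPLE 3 DGAT3 was the only one of the 14 beyond 2 propagated SDs, at −0.40 ± 0.11, again beside 2 of all 36 targets (5.56%). Of the nitrate assimilation genes NR was lower in SAMPLE 2, and in SAMPLE 3 at −1.15 ± 0.57, and NAR1 was near 0.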

How the data were processed

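Real-time quantitative PCR values with SYBR Green, a dye that fluoresces with double-stranded DNA, were taken from 3 deposited tables of 132 lines, 3 repeats for each gene. The first table holds a ratio that the authors scaled to the highest of the 12 values of each gene. The second holds the ratio the authors normalized to housekeeping genes, per the file headers, and the third the fold of test over control, per the file headers. Recomputed, the divisor was the geometric mean of CYP (cyclophilin) and PAP1 (phosphatidic acid phosphatase) within 0.1% for all genes but MCT, which was rebuilt from the first table and this divisor. No instrument, software or efficiency is named in the labels used. The steps of the ratios were 0.01 cycle at a base of 2.07 per cycle for AGPase1 and 2.00 for AGPase2. A total of 4 line identifiers of the first table were corrected by position.

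Log2 values of the normalized table were averaged over repeats (Python 3.11.15, numpy 2.4.6, tested on simulated data). A total of 8 genes counted as references (7 marked r and PAP1). Named genes were both members, the 3 targets of most like pattern for each, fixed lists and the extremes of each list. The members and lists were chosen with earlier results of these data known. Alternatives covered the reference, repeats, averaging, amplification base, error, fold threshold and source table. No genome was used.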

Additional observations from a re-analysis of the deposited data

Results flagged for a closer look

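Opposite directions in 2 flashing-light samples were looked for in AGPase1, AGPase2 and their ratio, comparing same-numbered repeats with continuous light. Of 9 checks, 4 met the condition, and none of the differences was tested, since each condition is 1 sample. These 4 share the AGPase1, SAMPLE 4 and continuous-light values, so they are not separate results. How many of the 36 targets meet the same condition was not counted, so the 4 have no background beside them. AGPase1 was lower than continuous light in the 3 repeats of SAMPLE 2 and higher in the 3 of SAMPLE 4, a difference of 0.81 log2 (SAMPLE 4 minus SAMPLE 2). It was also lower in the 3 repeats of SAMPLE 3, by 0.04 to 0.34 log2, with a difference of 0.34 for SAMPLE 4 minus SAMPLE 3. The ratio of AGPase2 to AGPase1 was higher in the 3 repeats of SAMPLE 2 and of SAMPLE 3 and lower in the 3 of SAMPLE 4, with differences of −0.91 for SAMPLE 4 minus SAMPLE 2 and −0.37 for SAMPLE 4 minus SAMPLE 3. For AGPase1 in SAMPLE 2 and SAMPLE 4, and for the ratio in SAMPLE 2, the repeats lay apart from all control repeats, whatever the matching. In the other cases the direction rests on matching repeat numbers, which did not meet the condition for pairing. AGPase2 met the condition in no pair.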

How the results depend on the processing

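Of 300 changes recomputed under 21 settings, 240 moved by less than 1 SD, 56 moved further, and 4 that had been beyond 2 SDs turned their sign, all for AGPase1 with beta tubulin as the only reference. Part of the 240 could not move, because some settings change only the SD or leave out a value that does not enter the comparison. Counting also values that had not been beyond 2 SDs, 34 of the 300 had the opposite sign. Of 192 counts, 68 differed by over 1.5 times. The ratio of AGPase2 to AGPase1 cannot move with the reference, and 3 of its 10 alternatives change its SD alone. It ran between 0.60 and 0.84 for SAMPLE 2 against continuous light. Its 4 calls beyond 2 SDs for SAMPLE 4 against SAMPLE 3 included that with a replicate block. Same-numbered repeats were not alike in every pair of samples, with correlations from −0.38 to 0.55, 10 of 18 above 0.1. Between flashing-light samples all correlations were positive, from 0.034 to 0.47, and each negative one involved continuous light. Whether the repeat numbers pair the flashing-light samples was thus not settled. With the SD taken within repeat numbers as a replicate block the values stayed as they were. AGPase1 in SAMPLE 2 was then at −0.64 ± 0.20 against continuous light. For SAMPLE 4 against SAMPLE 3 the ratio came out at −0.37 ± 0.11 and AGPase1 at 0.34 ± 0.09. The deposited fold table gave the same values and SDs as the block, so its calls repeat those of the block. The 2 settings that leave out a single value were chosen after seeing the data. Error here covers only the repeats, the cycles behind each value are unknown, and 1 sample per condition gives no spread between cultures. Below, S2, S3 and S4 stand for the flashing-light samples and CL for continuous light, numbers after a gene are log2 changes, and the cause was not tested. No reference gene gave AGPase1 −0.82 (S2/CL), 0.33 (S4/CL), 0.76 (S3/S2), 1.15 (S4/S2), and AGPase2 0.22 (S3/S2), 0.24 (S4/S2), and targets beyond 2 SDs 0 (S3/CL), 0 (S4/CL), 8 (S3/S2), 6 (S4/S2), 0 (S4/S3), and targets at 2-fold 3 (S2/CL). TEF1 alone gave AGPase1 −0.34 (S2/CL), 0.076 (S3/CL), 0.51 (S4/S2), 0.090 (S4/S3), and AGPase2 −0.40 (S4/S2), −0.28 (S4/S3), and targets beyond 2 SDs 9 (S2/CL), 1 (S3/CL), 0 (S4/CL), and targets at 2-fold 8 (S2/CL), 0 (S3/CL). UFP alone gave AGPase1 −1.24 (S2/CL), 0.38 (S4/CL), 1.04 (S3/S2), 1.62 (S4/S2), 0.58 (S4/S3), and AGPase2 −0.54 (S2/CL), 0.50 (S3/S2), 0.71 (S4/S2), 0.21 (S4/S3), and targets beyond 2 SDs 9 (S2/CL), 0 (S3/CL), 1 (S4/CL), 8 (S3/S2). AT1 alone gave AGPase1 −0.32 (S2/CL), 0.29 (S3/CL), 0.37 (S4/CL), 0.077 (S4/S3), and AGPase2 0.45 (S3/CL), 0.073 (S3/S2), −0.22 (S4/S2), −0.29 (S4/S3), and targets beyond 2 SDs 1 (S4/CL), 8 (S3/S2), 13 (S4/S2), 2 (S4/S3), and targets at 2-fold 8 (S2/CL), 0 (S3/CL). BT alone gave AGPase1 0.97 (S2/CL), 1.15 (S3/CL), −0.10 (S4/CL), 0.18 (S3/S2), −1.07 (S4/S2), −1.25 (S4/S3), and AGPase2 1.67 (S2/CL), 1.31 (S3/CL), −0.35 (S3/S2), −1.97 (S4/S2), −1.62 (S4/S3), and targets beyond 2 SDs 27 (S2/CL), 0 (S3/CL), 0 (S4/CL), 1 (S3/S2), 31 (S4/S2), 2 (S4/S3), and targets at 2-fold 33 (S2/CL), 30 (S3/CL). GAPDH alone gave AGPase1 −0.20 (S2/CL), 0.087 (S3/CL), 0.36 (S4/S2), 0.076 (S4/S3), and AGPase2 0.50 (S2/CL), −0.25 (S3/S2), −0.54 (S4/S2), −0.29 (S4/S3), and targets beyond 2 SDs 0 (S3/CL), 0 (S4/CL), and targets at 2-fold 9 (S2/CL), 0 (S3/CL). All 8 reference genes gave AGPase1 −0.38 (S2/CL), 0.13 (S3/CL), 0.57 (S4/S2), 0.062 (S4/S3), and AGPase2 −0.34 (S4/S2), −0.31 (S4/S3), and targets beyond 2 SDs 0 (S4/CL), 9 (S3/S2), 11 (S4/S3), and targets at 2-fold 8 (S2/CL), 0 (S3/CL). Centring on the median target gave AGPase1 −0.96 (S2/CL), 0.90 (S3/S2), 1.10 (S4/S2), and AGPase2 0.36 (S3/S2), 0.20 (S4/S2), −0.16 (S4/S3), and targets beyond 2 SDs 1 (S4/CL), and targets at 2-fold 3 (S2/CL). CYP alone gave targets beyond 2 SDs 1 (S4/CL). ACT alone gave targets beyond 2 SDs 0 (S4/CL), 7 (S3/S2), and targets at 2-fold 3 (S2/CL). PAP1 alone gave targets beyond 2 SDs 1 (S3/CL), 1 (S4/CL), 3 (S4/S3). Taking the median of the repeats gave targets beyond 2 SDs 1 (S3/CL), 1 (S4/CL), 3 (S4/S3), and pairs beyond 2 SDs 22 (S4/CL). A threshold of 1.5-fold gave targets at the fold 11 (S2/CL), 2 (S3/CL). With 1 repeat left out, targets at 2-fold numbered 0 to 1 (S3/CL), targets beyond 2 SDs 0 to 4 (S4/CL) and 3 to 9 (S4/S3), and pairs beyond 2 SDs 33 to 119 (S3/CL) and 24 to 100 (S4/CL).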
